A study of Homo sapiens with 8 samples.

Results

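The miR-17/92a cluster is a group of 6 miRNA hairpins, mir-17, mir-18a, mir-19a, mir-20a, mir-19b-1 and mir-92a-1, that are cut from one primary transcript of the non-coding host gene MIR17HG at 13q31.3. Its members were chosen by name as 10 mature miRNAs of these hairpins. All 10 were listed among the 3112 miRNAs of the count table and passed the low-count filter. They were followed in small RNA libraries of 786-O, a widely used human cell line from a clear cell renal cell carcinoma (ccRCC), in 4 circSOD2-sh libraries and 4 negative control (NC) libraries. The circSOD2-sh cells carried a short hairpin RNA against circSOD2, a circular RNA of the SOD2 gene, and the NC cells carried a control construct. The sample labels describe plasmids transfected with Lipofectamine 3000 into cells of both groups and RNA taken 48 h later, whereas the methods of the study describe lentiviral knockdown with puromycin selection. Which of the shRNAs was used for sequencing is not named. No source says whether the 4 libraries of a group came from separate cultures, so p-values measure the spread between these libraries, which may be technical. The level of circSOD2 itself was not analysed here.

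An miRNA hairpin is cut by Drosha in the nucleus and by Dicer in the cytoplasm into a duplex of a 5p and a 3p arm. The arm that is mostly loaded into Argonaute is called the guide, and the other, mostly degraded, the passenger. The cluster is transcribed under the control of MYC and of E2F factors and is amplified in some lymphomas, which is why it is known as an oncogenic miRNA cluster. Its hairpins are transcribed together but processed separately, and their guides fall into 4 groups by seed, the bases that pair first with a target. The miR-17 group is known for restraining E2F1 and the cell cycle inhibitor CDKN1A, miR-18a for restraining the matrix protein CTGF, and the miR-92 group for restraining the integrin ITGA5.

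The 6 guides are shown with their seed (bases 2 to 8 from the 5′ end) in capitals, because the seed decides which members of the cluster can be compared with each other and with miRNAs of other loci. Sequences are those of RefSeq on GRCh38.p14, and all 10 members were matched by name.
hsa-miR-17-5p: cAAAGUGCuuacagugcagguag
hsa-miR-20a-5p: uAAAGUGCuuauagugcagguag
hsa-miR-18a-5p: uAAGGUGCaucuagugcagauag
hsa-miR-19a-3p: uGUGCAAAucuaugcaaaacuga
hsa-miR-19b-3p: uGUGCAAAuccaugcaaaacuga
hsa-miR-92a-3p: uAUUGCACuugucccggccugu
The remaining 4 members are passengers of these hairpins and share no seed with the guides or with each other.
hsa-miR-17-3p: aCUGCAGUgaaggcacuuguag
hsa-miR-18a-3p: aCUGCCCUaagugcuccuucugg
hsa-miR-20a-3p: aCUGCAUUaugagcacuuaaag
hsa-miR-92a-1-5p: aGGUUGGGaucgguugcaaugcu

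The 6 hairpins span 787 bases of the plus strand of chromosome 13, chr13:91350605-91351391 on GRCh38. They lie within MIR17HG (chr13:91347820-91354579 in GENCODE release 29), in an exon of 2 of its 3 annotated transcripts and in an intron of the other. The sequences of miR-19b-3p and miR-92a-3p also occur in the hairpins MIR19B2 and MIR92A2 on the minus strand of chromosome X, at chrX:134169671-134169766 and chrX:134169538-134169612. A read of either miRNA can come from either chromosome. Several sequences differ by few bases, counted here from the 5′ end. The difference between miR-17-5p and miR-106a-5p of the X chromosome cluster is C1A alone, and that between miR-18a-5p and miR-18b-5p of the same X chromosome cluster is A20U alone. Within the cluster, miR-17-5p and miR-20a-5p differ by C1U and C12U, and miR-19a-3p and miR-19b-3p by U11C. How reads between such neighbours were assigned is not given in the sources used here, and small members of these pairs are uncertain for that reason.

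The count table summed to 6386872 to 9245044 per NC library and to 3743860 to 4208276 per circSOD2-sh library. The most abundant of the miRNAs that the authors predicted took 54.3% to 59.1% of NC counts but 0.0628% to 0.105% of circSOD2-sh counts, so levels depend on how libraries are scaled. Levels below are counts scaled to library size (CPM) after TMM adjustment with edgeR, called normalized CPM, and changes are log2 fold changes of circSOD2-sh over NC. Over the 895 miRNAs tested the median log2 fold change was -0.0022 with TMM and 0.96 with library totals. It was -0.41 over 914 miRNAs when the summed counts of known miRNAs served as library size. NC replicate 4 and circSOD2-sh replicate 2 stood apart from the rest by markers of other cells. The 4 stromal and smooth muscle markers summed to 7.38 to 8.69 normalized CPM in NC replicates 1 to 3 and to 556.9 in NC replicate 4. In circSOD2-sh they summed to 8.00 to 13.4 in replicates 1, 3 and 4 and to 227.5 in replicate 2. The 5 neural markers summed to 520 to 558 in NC, to 472 to 490 in circSOD2-sh replicates 1, 3 and 4 and to 5226 in replicate 2. Most of the NC sum was miR-128-3p, with a mean of 495. Leukocyte and erythroid markers were highest in the same libraries of each group, at 17.1 and 169.5 in NC replicate 4 and at 14.6 and 58.6 in circSOD2-sh replicate 2. The 6 markers of kidney tubule epithelium were all in the count table, with no lowest level required. They summed to 4146 to 5084 in NC and to 3598 to 3969 in circSOD2-sh. Most of the sum was miR-200b-3p, with means of 4073 in NC and 3429 in circSOD2-sh. Means of miR-192-5p were 501 and 274, those of miR-194-5p 44.6 and 23.4, those of miR-200c-3p 15.6 and 5.46, and those of miR-141-3p 11.9 and 2.29. The remaining tubule marker, miR-204-5p, did not pass the low-count filter. The single liver marker summed to 3.75 to 5.82 in NC and to 1.36 to 2.49 in circSOD2-sh.

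Summed over its 10 members, the cluster took a larger part of the library in circSOD2-sh. Together they held 1.12% to 1.24% of the counts of known miRNAs in NC and 1.963% to 2.06% in circSOD2-sh. Of the summed member counts, miR-92a-3p held 35.0% to 38.1% in NC and 51.1% to 59.8% in circSOD2-sh. Without miR-92a-3p, which also has an X chromosome locus, the part held by the members overlapped between the groups. Of 3352498 known counts in NC replicate 3 the members held 41663, of which 14575 were miR-92a-3p. Of 3753128 in circSOD2-sh replicate 4 they held 73676, of which 44058 were miR-92a-3p, leaving a smaller part than in NC replicate 3. No test was run on these parts. Of the 10 members, 4 were higher in circSOD2-sh, 1 was lower and 5 did not pass the test (adjusted p-value under 0.05 from the quasi-likelihood test of edgeR, over all miRNAs tested). Among all miRNAs tested, 33.3% were higher and 32.4% lower, so the 5 called members of 10 do not exceed the 65.7% called in all. The median log2 fold change of the members was 0.23, against -0.0022 over all miRNAs tested and -0.11 over the 463 known miRNAs among them. In normalized CPM the groups did not overlap for 5 of the 10 members, against 60.3% of all miRNAs tested and 242 of the 463 known ones. Several of the predicted miRNAs tested had values identical to one another. Among the 463 known miRNAs alone, 27.0% were higher and 28.5% lower. In such bulk libraries, fewer cells holding an miRNA and less of it per cell cannot be told apart. The members did not change to the same extent, and after TMM they did not all change in the same direction. The guides miR-92a-3p, miR-20a-5p and miR-17-5p and the passenger miR-18a-3p were those called higher, and the passenger miR-92a-1-5p was the one called lower, a direction that turned with library totals, upper-quartile scaling or limma on the deposited CPM.

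**Figure D1:**
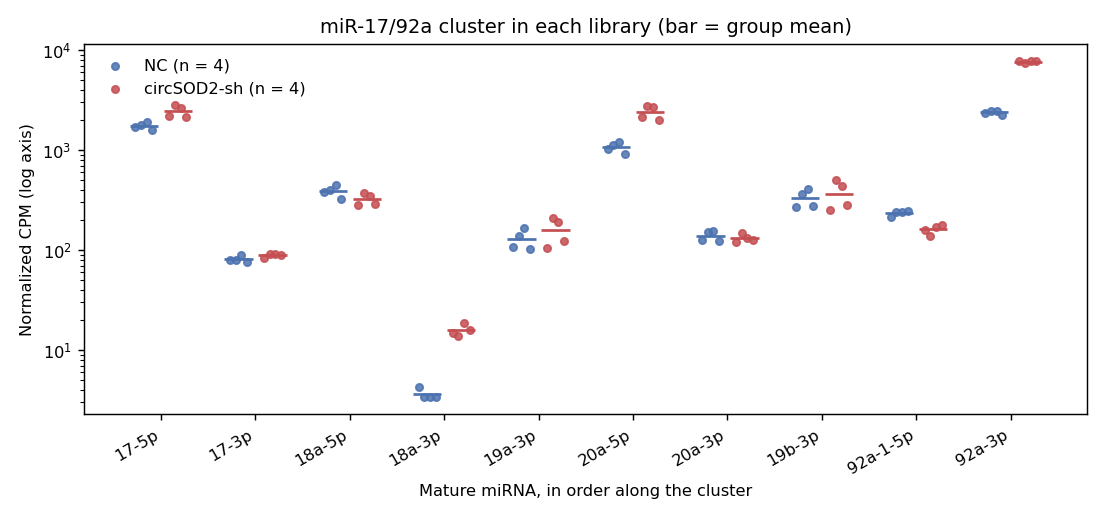
Normalized CPM on a log axis (y) of the 10 members, in order along the cluster (x), with 1 point per library (4 NC and 4 circSOD2-sh) and a bar at each group mean. The circSOD2-sh points of miR-92a-3p, between 7411 and 7829, lie above all NC points, between 2242 and 2483, while the points of miR-17-3p, miR-18a-5p, miR-19a-3p, miR-20a-3p and miR-19b-3p overlap between the groups.

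Among the guides, miR-92a-3p was the most abundant member in both groups and changed most. Its normalized CPM was 2367, 2478, 2483 and 2242 in NC and 7822, 7411, 7753 and 7829 in circSOD2-sh. Every circSOD2-sh library lay above every NC library, and the spread within each group was small. Its mean normalized CPM rose from 2393 ± 114 to 7704 ± 198 (SD, n = 4 per group), a 3.22-fold difference and a log2 fold change of 1.69 (standard error, SE, 0.063, edgeR adjusted p = 6.11e-09). Among the 463 known miRNAs tested it ranked 34 by mean level in NC and 19 in circSOD2-sh. The rise kept an adjusted p-value under 0.05 under every alternative run, with a log2 fold change of 1.34 with summed known miRNA counts as library size and 2.65 with library totals. Without NC replicate 4 and circSOD2-sh replicate 2 it was 1.57.

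The paired seed members miR-17-5p and miR-20a-5p both rose, but to different extents. In NC miR-20a-5p was at 1022, 1126, 1206 and 911.7 normalized CPM, and in circSOD2-sh at 2138, 2786, 2681 and 1993. The groups were apart, and circSOD2-sh replicates 2 and 3 were the highest. The mean went from 1066 ± 127.7 to 2400 ± 393 normalized CPM (SD, n = 4 per group), with a log2 fold change of 1.17 (SE 0.13, edgeR adjusted p = 2.71e-05). For miR-17-5p the NC libraries were at 1722, 1806, 1896 and 1581 normalized CPM and the circSOD2-sh libraries at 2199, 2839, 2624 and 2162. Again replicates 2 and 3 were the highest of the circSOD2-sh libraries, and the groups did not overlap. The log2 fold change of miR-17-5p was 0.49 (SE 0.11, edgeR adjusted p = 0.00241). This call was lost without circSOD2-sh replicate 3, at 0.30 (edgeR adjusted p = 0.0585), and with summed known miRNA counts as library size, at 0.14 (edgeR adjusted p = 0.144). A ratio of counts within a library does not depend on scaling. The ratio of miR-20a-5p to miR-17-5p was 0.594, 0.623, 0.636 and 0.577 in NC and 0.972, 0.981, 1.02 and 0.922 in circSOD2-sh. From clearly below miR-17-5p in every NC library, miR-20a-5p thus came to about its level in circSOD2-sh. No test was run on this ratio, whose groups did not overlap.

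The guides miR-18a-5p, miR-19a-3p and miR-19b-3p did not pass the test. In NC miR-18a-5p was at 378, 395, 447 and 325 normalized CPM, and in circSOD2-sh at 285, 377, 350 and 292. The groups overlapped, and the log2 fold change was -0.24 (SE 0.13, edgeR adjusted p = 0.12). It turned to 0.71 with library totals (edgeR adjusted p = 0.000334) and was called lower without circSOD2-sh replicate 2, at -0.43 (edgeR adjusted p = 0.00903), without circSOD2-sh replicate 3, at -0.44, and without NC replicate 4, at -0.36. Relative to its neighbour on the transcript, miR-18a-5p gave 20.5 to 23.6 counts per 100 of miR-17-5p in NC and 13.0 to 13.5 in circSOD2-sh. These ranges did not overlap, and the latter was narrow across the 4 libraries.

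The miR-19 guides spread most within groups. The level of miR-19a-3p was 108, 139, 165 and 103 normalized CPM in NC and 106.1, 209, 191.6 and 125 in circSOD2-sh. For miR-19b-3p it was 271, 363.4, 410 and 278 in NC and 252, 501, 441 and 281 in circSOD2-sh. Both guides were highest in NC replicates 2 and 3 and in circSOD2-sh replicates 2 and 3, and the groups overlapped throughout. Their log2 fold changes were 0.29 (SE 0.24, edgeR adjusted p = 0.303) and 0.16 (SE 0.23, edgeR adjusted p = 0.567), and both turned negative with summed known miRNA counts as library size. The change of miR-19a-3p was 0.012 without circSOD2-sh replicate 2, and that of miR-19b-3p was -0.14. Counting error alone was small, with 459 or more counts of miR-19a-3p in each library. The ratio of miR-19b-3p to miR-19a-3p varied far less than either level. It was 2.51, 2.62, 2.49 and 2.69 in NC and 2.37, 2.40, 2.30 and 2.25 in circSOD2-sh, without overlap of the groups.

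The order of the members was similar in both groups at its ends. In NC miR-92a-3p was followed by miR-17-5p, miR-20a-5p and miR-18a-5p, each without overlap with the next in the order except that miR-18a-5p overlapped miR-19b-3p. In circSOD2-sh miR-17-5p overlapped miR-20a-5p. The level of miR-18a-3p was the lowest of the 10 in both groups. Levels of different miRNAs carry the ligation and amplification bias of their sequences, so this order describes reads rather than molecules.

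As shares of the summed counts of the 10 members, miR-92a-3p was larger in circSOD2-sh and the other members, miR-20a-5p and miR-18a-3p excepted, were smaller. It held 36.8% ± 1.37 of the cluster in NC and 56.0% ± 4.31 in circSOD2-sh (SD, n = 4 per group). The share of miR-17-5p was 26.9% ± 0.328 in NC and 17.7% ± 1.43 in circSOD2-sh (SD, n = 4 per group), and that of miR-18a-5p was 5.91% ± 0.328 and 2.35% ± 0.197. The groups did not overlap for these shares. The share of miR-20a-5p, 16.3% ± 0.642 in NC and 17.3% ± 1.88 in circSOD2-sh, overlapped between the groups. Shares were described without a test, and a share falls when another rises.

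**Figure D2:**
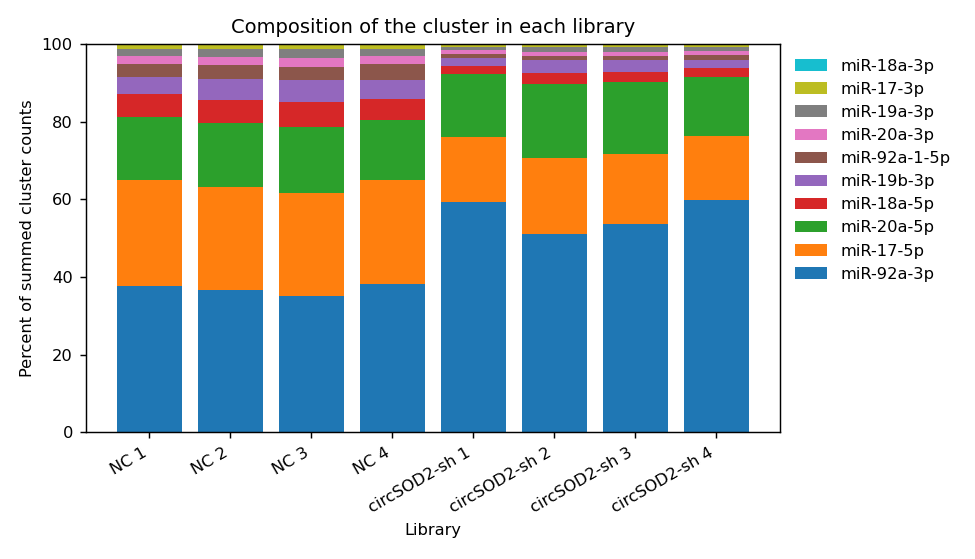
Stacked bars of the percent of the summed cluster counts (y) held by each of the 10 members in each of the 8 libraries (x). The lowest block, miR-92a-3p, reaches from 34.98% to 38.1% in the NC libraries and from 51.1% to 59.8% in the circSOD2-sh libraries.

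The passengers did not follow their guides. In the hairpins below both arms are in capitals, first the 5p and then the 3p arm. They are shown because in each of them the arms changed by different amounts.
mir-18a, chr13:91350751-91350821: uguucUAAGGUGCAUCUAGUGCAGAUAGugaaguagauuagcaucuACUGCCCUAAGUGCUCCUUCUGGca
mir-20a, chr13:91351065-91351135: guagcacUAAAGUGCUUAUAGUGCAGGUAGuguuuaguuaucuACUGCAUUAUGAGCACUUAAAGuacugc
mir-19b-1, chr13:91351192-91351278: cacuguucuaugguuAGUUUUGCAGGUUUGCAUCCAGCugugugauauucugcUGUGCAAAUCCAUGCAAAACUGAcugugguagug
mir-92a-1, chr13:91351314-91351391: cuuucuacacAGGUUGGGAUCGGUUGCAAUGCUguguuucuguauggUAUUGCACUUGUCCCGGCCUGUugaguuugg

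The passenger of mir-18a had the largest fold change of the 10 members. Counts of miR-18a-3p were 28, 22, 20 and 15 in NC and 87, 78, 93 and 90 in circSOD2-sh, although the circSOD2-sh libraries held fewer counts in all. Its mean normalized CPM rose from 3.61 ± 0.452 to 15.8 ± 2.11 (SD, n = 4 per group), a log2 fold change of 2.12 (SE 0.17, edgeR adjusted p = 1.8e-06). The lowest NC count is above the floor of 3 counts, equal to 0.46 to 0.674 normalized CPM in the NC libraries. Floors cover counting error only, because amplified reads are not independent molecules. The log2 ratio of miR-18a-5p to miR-18a-3p was 6.30, 6.67, 6.84 and 6.39 in NC and 4.22, 4.73, 4.195 and 4.15 in circSOD2-sh. The guide remained the more abundant arm in every library, but by less. The ratio fell by 2.23 on the log2 scale (SE 0.18, limma adjusted p = 2.42e-06 over 119 hairpins with both arms tested).

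The arms of mir-92a-1 moved apart in the other sense, the guide gaining on its passenger. The passenger miR-92a-1-5p was at 216.5, 239.6, 240.6 and 244.5 normalized CPM in NC and at 158, 138, 172 and 178 in circSOD2-sh. All circSOD2-sh libraries lay below all NC libraries. The log2 fold change was -0.54 (SE 0.10, edgeR adjusted p = 0.00118), and it turned to 0.43 with library totals (edgeR adjusted p = 0.0057). The log2 ratio of miR-92a-1-5p to miR-92a-3p was -3.45, -3.37, -3.36 and -3.19 in NC and -5.62, -5.74, -5.49 and -5.45 in circSOD2-sh. It fell by 2.23 on the log2 scale (SE 0.13, limma adjusted p = 2.56e-07). This ratio sets a passenger of chromosome 13 alone against a guide that the X chromosome can also give.

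The remaining arms of the cluster that are not among the 10 members are miR-19b-1-5p and miR-19a-5p. The first was at 20.1, 26.6, 21.8 and 22.0 normalized CPM in NC, from 98 to 173 counts, and at 1.53, 3.88, 3.01 and 3.73 in circSOD2-sh, from 9 to 22 counts. The groups were far apart. The level of miR-19b-1-5p fell from 22.6 ± 2.79 to 3.04 ± 1.08 normalized CPM (SD, n = 4 per group), a log2 fold change of -2.89 (SE 0.26, edgeR adjusted p = 5.28e-06), which kept its direction under every scaling run. Against its guide miR-19b-3p, whose level was not called, the log2 ratio changed by -2.88 (SE 0.23, limma adjusted p = 2.42e-06). As with mir-92a-1, the X chromosome can also give this guide. The passenger miR-19a-5p had at most 4 counts in any library and was not tested.

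In mir-20a and mir-17 the passengers were not called. The level of miR-20a-3p was 140 ± 17.1 normalized CPM in NC and 132 ± 11.1 in circSOD2-sh (SD, n = 4 per group), and that of miR-17-3p was 81.2 ± 6.20 and 89.1 ± 4.15. Neither passed the test, with log2 fold changes of -0.08 (SE 0.12, edgeR adjusted p = 0.556) and 0.14 (SE 0.097, edgeR adjusted p = 0.247). The first turned to 0.88 with library totals, and the second to -0.21 with summed known miRNA counts as library size. Since the guide miR-20a-5p rose, the log2 ratio of miR-20a-5p to miR-20a-3p went from 2.93 ± 0.0684 to 4.17 ± 0.157 (SD, n = 4 per group), a change of 1.24 (SE 0.13, limma adjusted p = 1.4e-05). For mir-17 the change was 0.35 (SE 0.12, limma adjusted p = 0.0297). The latter call is weak. It was lost without any NC library and without circSOD2-sh replicate 3, where the change lay between 0.328 and 0.366 with adjusted p-values up to 0.0751 from limma.

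All 4 hairpins with both arms among the members passed the test of the arm ratio, the 5p arm gaining in mir-17 and mir-20a and the 3p arm in mir-18a and mir-92a-1. Over all 119 hairpins the test was passed by 63.0%, with the 5p arm gaining in 30.3% and the 3p arm in 32.8%, and the groups did not overlap in 60.5%. Changes of arm ratio were thus common across all hairpins tested. The labels give no batch that holds libraries of both groups, so the knockdown and any unlike handling of the 2 sets of libraries cannot be told apart.

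**Figure D3:**
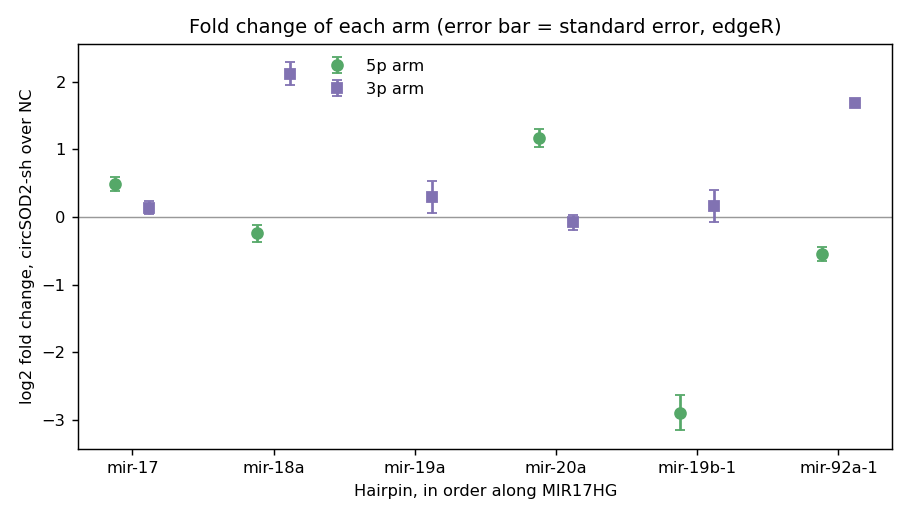
log2 fold change of circSOD2-sh over NC after TMM scaling (y) of the 5p arm (circles) and the 3p arm (squares) of each hairpin in its order along MIR17HG (x), with error bars of 1 standard error from edgeR. The arms of mir-18a, mir-19b-1 and mir-92a-1 lie far apart, at -0.24 and 2.12, -2.89 and 0.16, and -0.54 and 1.69, of which the small values -0.24, 0.16 and -0.54 change sign under other scalings; miR-19a-5p was not tested.

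**Figure D4:**
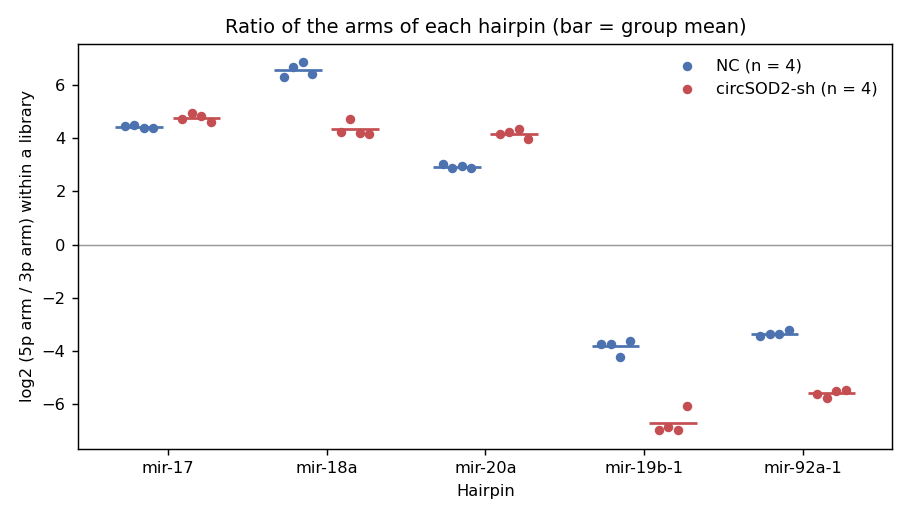
Log2 of the normalized CPM of the 5p arm over that of the 3p arm, after 0.5 normalized CPM was added to each, in every library (y) for 5 hairpins (x), with 1 point per library and a bar at each group mean, for 4 NC and 4 circSOD2-sh libraries. The groups do not overlap in any of the 5, and the smallest distance between group means is that of mir-17, from 4.42 in NC to 4.77 in circSOD2-sh.

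The X chromosome cluster, a duplicate of the miR-17/92a cluster, bears on miR-19b-3p and miR-92a-3p, which it can also give. Of its 10 arms on the list, 5 were in the count table. Of these, 3 had too few counts to be tested. Counts of miR-18b-5p were between 1 and 11 and those of miR-363-3p between 0 and 7 in all 8 libraries. A single count of miR-19b-2-5p, the passenger of the second miR-19b hairpin, was seen over the 8 libraries, in NC replicate 2. The passenger of the second miR-92a hairpin, miR-92a-2-5p, was on the list but not in the count table. Whether it had no reads or was missing from the annotation used is not known. The part of miR-92a-3p and miR-19b-3p reads that came from the X chromosome was not tested.

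The arms of the X chromosome cluster that passed the filter were miR-106a-5p and miR-20b-5p. Both were higher in circSOD2-sh, as were 33.3% of all miRNAs tested. The level of miR-106a-5p was 38.6 ± 6.54 normalized CPM in NC and 63.1 ± 10.96 in circSOD2-sh (SD, n = 4 per group), with a log2 fold change of 0.71 (SE 0.17, edgeR adjusted p = 0.00418). For miR-20b-5p it was 7.87 ± 1.72 and 16.3 ± 2.57 (SD, n = 4 per group), with a log2 fold change of 1.05 (SE 0.20, edgeR adjusted p = 0.00109). Each was set against a cluster member from which it differs by 1 or 2 bases. There were 1.95 to 2.40 counts of miR-106a-5p per 100 of miR-17-5p in NC and 2.36 to 2.65 in circSOD2-sh. There were 0.615 to 0.847 counts of miR-20b-5p per 100 of miR-20a-5p in NC and 0.673 to 0.691 in circSOD2-sh. For each of these ratios the groups overlapped. The sequence of miR-20b-5p is as close to miR-17-5p (U10C and C12U) as to miR-20a-5p (U1C and U10C). Per 100 counts of miR-17-5p there were 0.365 to 0.539 of miR-20b-5p in NC and 0.625 to 0.687 in circSOD2-sh, without overlap. Misassigned reads of the abundant member among those of the scarce one were not tested.

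The cluster in the MCM7 gene, which gives miR-106b, miR-93 and miR-25, holds guides with the seeds of miR-17 and miR-92. Of its 6 arms 3 were higher, 1 was lower and 2 did not pass the test. Over all miRNAs tested 65.7% were called, 33.3% higher and 32.4% lower. Among its guides miR-93-5p rose in normalized CPM from 1033 ± 105.7 to 1405 ± 99.7 (SD, n = 4 per group), a log2 fold change of 0.44 (SE 0.093, edgeR adjusted p = 0.0021), and this call was lost without circSOD2-sh replicate 3, at 0.26, and with summed known miRNA counts as library size, at 0.10. The guides miR-106b-5p and miR-25-3p were not called, with log2 fold changes of 0.07 (SE 0.11, edgeR adjusted p = 0.595) and 0.10 (SE 0.083, edgeR adjusted p = 0.303), and both turned negative with summed known miRNA counts as library size. Here too the passengers changed otherwise than the guides. The passengers miR-106b-3p and miR-93-3p rose by log2 fold changes of 7.36 and 1.99, and miR-25-5p fell by 0.39 on the log2 scale (edgeR adjusted p = 0.0145), which turned to 0.58 with library totals.

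Within the miR-92 seed, miR-92a-3p stood higher above its relatives in circSOD2-sh. The seed is shared by miR-25-3p, by miR-92b-3p, and by miR-32-5p and miR-363-3p, which were scarce. The level of miR-92b-3p was 781 ± 11.7 normalized CPM in NC and 1044 ± 20.5 in circSOD2-sh (SD, n = 4 per group), a log2 fold change of 0.42 (SE 0.062, edgeR adjusted p = 0.000215), and this call was lost with summed known miRNA counts as library size, at 0.07. The ratio of miR-92a-3p to miR-92b-3p was 3.01, 3.24, 3.14 and 2.86 in NC and 7.39, 7.31, 7.35 and 7.45 in circSOD2-sh. These sequences differ by U10C, G21C and U22C. The ratio to miR-25-3p was 1.61 to 1.72 in NC and 4.82 to 5.66 in circSOD2-sh. Of the summed level of the 5 listed miRNAs with this seed, miR-92a-3p made up 51.7% ± 0.862 in NC and 74.8% ± 0.744 in circSOD2-sh (SD, n = 4 per group). The level of miR-32-5p was 26.2 ± 1.55 and 21.1 ± 3.13 normalized CPM, which did not pass the test (log2 fold change -0.31, SE 0.14, edgeR adjusted p = 0.0728) and turned to 0.65 with library totals. It was called lower without circSOD2-sh replicate 1, 2 or 3, at -0.40, -0.53 and -0.44.

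Within the miR-17 seed the composition moved less. Of the summed level of the 6 listed miRNAs with this seed that were tested, miR-17-5p and miR-20a-5p made up 70.1% ± 0.152 in NC and 75.0% ± 1.40 in circSOD2-sh (SD, n = 4 per group). The ratio of miR-93-5p to miR-17-5p was 0.567 to 0.604 in NC and 0.524 to 0.607 in circSOD2-sh, and these ranges overlapped, whereas those of miR-20a-5p to miR-17-5p, which share a transcript, did not. A single count of miR-519d-3p, which has the same seed, was seen over the 8 libraries.

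**Figure D5:**
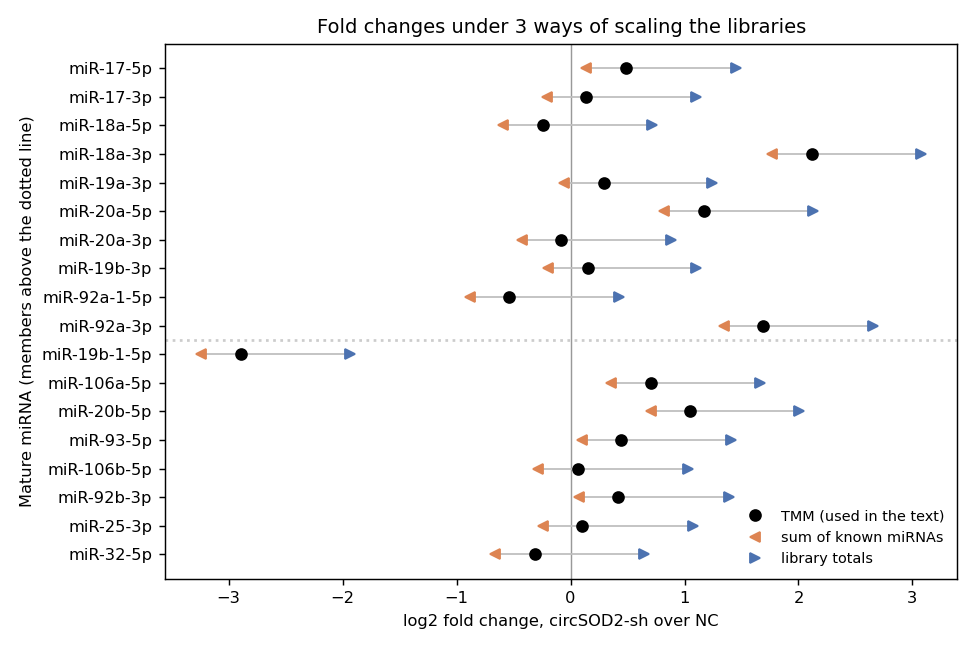
log2 fold change of circSOD2-sh over NC (x) of the 10 members (above the dotted line) and of 8 related miRNAs (below it) on the y axis, with libraries scaled by TMM (circles), by the sum of known miRNA counts (left triangles) or by library totals (right triangles). The 3 values of miR-92a-3p, miR-20a-5p, miR-18a-3p and miR-17-5p stay above 0, those of miR-19b-1-5p stay below 0, and those of miR-92a-1-5p lie on both sides of 0.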

How the data were processed

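Small RNA of 786-O cells in 4 NC and 4 circSOD2-sh libraries was sequenced on an Illumina platform. The authors deposited raw counts per mature miRNA, CPM on library totals above the sum of the counts listed, and their own comparison of the groups (mean CPM, fold changes, p-values and a call), which was not used. The submitters' processing notes name FastQC 0.11.2, Trimmomatic 0.36, Bowtie 1.1.1 and GRCh38, and the counting tool and miRNA annotation are not given in the sources used here. The files hold no coordinates. Positions and sequences are from RefSeq (GRCh38.p14) and GENCODE release 29 (GRCh38), where hairpin positions were identical.

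The model for counts was fitted with edgeR 4.0.16 under R 4.3.3 (filterByExpr with a minimum count of 10, TMM, quasi-likelihood test, prior count 0.125, p-values adjusted by Benjamini-Hochberg over the 895 miRNAs left). Known miRNAs are those not numbered as predicted by the authors. The standard error is the absolute log2 fold change over the square root of F. Arm ratios were tested with limma 3.58.1 on log2 ratios after 0.5 normalized CPM was added to each arm. DESeq2 1.42.0 was an alternative. The scripts were tested on simulated data. Tables and figures were made with Python 3.11.15, pandas 2.3.3 and matplotlib 3.10.9. The members, the lists of related miRNAs and markers and the alternatives were chosen with earlier results of these data known. The miRNAs named are the 10 members, the other arms of their hairpins, the arms of the paralogous clusters and other miRNAs with a guide's seed. Named as well are markers of kidney tubule epithelium and the 3 known miRNAs whose profile is nearest to that of miR-17-5p. No 2 libraries of a group were alike enough to be the same library (chi-square per degree of freedom of 11.4 or more).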

Additional observations from a re-analysis of the deposited data

Results flagged for a closer look

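Of 100 groups of 4 libraries examined, 10 had a library far from the other 3 by Dixon's criterion, where chance gives about 5, or 1 in 20. Among the members, NC replicate 1 had 4.29 normalized CPM of miR-18a-3p, while NC replicates 2 to 4 had 3.37 to 3.41. The log2 ratio of miR-18a-5p to miR-18a-3p reached 4.73 in circSOD2-sh replicate 2, above 4.15 to 4.22 in its group, and that of miR-19b-1-5p to miR-19b-3p stood at -6.06 in circSOD2-sh replicate 4, above -6.97 to -6.84. The share of miR-17-3p in the cluster came to 0.679% in circSOD2-sh replicate 4, above 0.633% to 0.639%. The ratio of miR-106a-5p to miR-17-5p came to 0.0236 in circSOD2-sh replicate 1, below 0.026 to 0.0265.

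The other 5 lay in circSOD2-sh replicate 2, the library with the highest neural markers. There miR-93-3p was at 48.9 normalized CPM against 61.3 to 63.5, miR-25-3p at 1308 against 1580.2 to 1624, and miR-32-5p at 25.8 against 19.2 to 20.05, the ranges being those of replicates 1, 3 and 4. The ratio of miR-92a-3p to miR-25-3p was 5.66 there against 4.82 to 4.91, and that of miR-20a-3p to miR-17-3p was 1.60 against 1.43 to 1.45. The part of RNA from other cells in these values was not tested.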

How the results depend on the processing

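Among the members, the changes of miR-92a-3p, miR-20a-5p and miR-18a-3p kept their direction and their call under all 13 alternatives and without any 1 library. So did those of miR-19b-1-5p, miR-106a-5p, miR-20b-5p, miR-106b-3p and miR-93-3p. With library totals, upper-quartile scaling, limma on log2(deposited CPM + 1) and limma on log2(deposited CPM + 0.1), in this order, log2 fold changes turned to 0.71, 0.58, 0.58 and 0.58 for miR-18a-5p, to 0.88, 0.75, 0.74 and 0.75 for miR-20a-3p, to 0.43, 0.31, 0.28 and 0.28 for miR-92a-1-5p, to 0.58, 0.45, 0.44 and 0.44 for miR-25-5p, and to 0.65, 0.52, 0.48 and 0.50 for miR-32-5p. Members called higher then numbered 10, 9, 10 and 10 and members called lower 0, 0, 0 and 0 (no member had a log2 fold change under 0). All miRNAs called higher were 613, 570, 561 and 558 and those called lower 158, 160, 163 and 163, against 298 and 290 with TMM. A mean of at least 50 counts left 149 higher and known miRNAs only left 123 higher and 123 lower, with fewer miRNAs tested. With summed known miRNA counts as library size 3 members were called lower, and log2 fold changes turned to -0.21 for miR-17-3p, -0.059 for miR-19a-3p, -0.20 for miR-19b-3p, -0.28 for miR-106b-5p and -0.24 for miR-25-3p. The cause was not tested.

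Without NC replicate 4 and circSOD2-sh replicate 2 together 3 members were called lower, log2 fold changes turned to -0.016 for miR-17-3p, -0.077 for miR-19a-3p, -0.22 for miR-19b-3p and -0.12 for miR-106b-5p, and the arm ratio of mir-17 changed by 0.27 (limma adjusted p = 0.0634). Leaving out 1 library at a time gave -0.036 to 0.14 for miR-17-3p, 0.012 to 0.39 for miR-19a-3p, -0.14 to 0.23 for miR-19b-3p, -0.12 to 0.053 for miR-106b-5p, -0.064 to 0.065 for miR-25-3p, 1 to 2 members called lower, and 0.287 to 0.402 for the arm ratio of mir-17. The other 4 arm ratios kept their calls in every alternative in which they were tested. That of mir-19b-1 was left out where both arms needed at least 10 counts in every library, as miR-19b-1-5p had 9 in circSOD2-sh replicate 1.

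The replicate numbers are not said to pair the samples, and weak correlations could not settle whether they do. Deviations of same-numbered libraries correlated at 0.24, -0.08, 0.09 and -0.16. For NC replicates 1 and 3 the same-numbered circSOD2-sh library gave the highest correlation, and for NC replicates 2 and 4 another did. Under a replicate block 2 members were called lower, miR-18a-5p being added at -0.25 (edgeR adjusted p = 0.0403), and the arm ratio of mir-17 was not called at 0.35 (limma adjusted p = 0.0617). Among the members miR-18a-3p had the fewest counts, with 15 to 28 counts per NC library.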

Other observations

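The known miRNAs outside the related lists whose profile over the 8 libraries was nearest to that of miR-17-5p were miR-2355-5p, miR-103a-3p and miR-4521, at root mean square distances of 0.108, 0.108 and 0.11 on the centred log2 scale, against a median of 0.507 over the 442 miRNAs compared. In NC miR-103a-3p was at 2593 ± 127 normalized CPM and in circSOD2-sh at 3414 ± 158 (SD, n = 4 per group), which is 0.40 on the log2 scale (edgeR adjusted p = 0.000526). The log2 fold changes of miR-2355-5p and miR-4521 were 0.45 and 0.63. This likeness over 8 libraries in 2 groups is a description.

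The arm ratios of the hairpins in MCM7 all passed the test as well, as did 63.0% of the 119 hairpins tested. The log2 ratio of miR-106b-5p to miR-106b-3p turned from 5.45 in NC to -1.64 in circSOD2-sh, so that the passenger became the more abundant arm. The ratio of miR-93-5p to miR-93-3p went from 6.06 to 4.56 (adjusted p = 1.43e-05 from limma), and that of miR-25-5p to miR-25-3p from -3.86 to -4.34 (adjusted p = 0.00822 from limma). In all 3 the 3p arm gained, as it did in 32.8% of all hairpins tested.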
